A study of Mus musculus with 6 samples.

Results

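Natural killer (NK) cell and cytotoxic genes were followed with age in sorted marrow cells of C57BL/6 mice, labelled as mesenchymal stem cells. The set holds 10 genes: the NK cell receptor genes Klrb1c, Klre1, Klrd1, Klrk1 and Ncr1, the granule genes Gzma, Gzmb, Prf1 and Nkg7, and the transcription factor gene Eomes. Its members were all non-control probes whose accession is a RefSeq transcript of one of these genes, which gave 13 of the 55681 probes on the array and 10 of the 37163 genes and other named transcripts. Total RNA was measured on 6 Agilent 1-colour arrays, 3 from mice aged 3 months (young) and 3 from mice aged 24 months (old), with no other treatment or genotype stated. The sort markers, the sex of the animals and whether animals were pooled are not given in the sources used here. No label states that replicates were separate animals. The p-values therefore reflect only how far these samples scatter, which may be technical.

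NK cells are lymphocytes that kill infected or transformed cells without prior priming. Their response depends on the balance of activating and inhibitory surface receptors, many of them lectin-like proteins encoded side by side in the NK gene complex. Killing runs through granules that release perforin, which opens the target membrane, and granzymes, serine proteases that enter through it. NK cells mature in the bone marrow under interleukin 15 and the T-box factors Eomes and T-bet, and cytotoxic T cells share much of the granule machinery. Granzyme B is also made by some mast cells and plasmacytoid dendritic cells.

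All values below are log2 processed signals relative to the array's 75th percentile over probes, so that 0 is the 75th percentile and a lower number is dimmer. The old arrays were dimmer before scaling: that percentile was 277 to 349 in the young and 206 to 285 in the old samples, and 55.2% to 59.97% of probes against 50.9% to 53.4% were well above background as the scanner software calls it. No spot was saturated. A single slide held every array, with young samples in 1 row and old ones in another, and row and age cannot be told apart. Of 20 mesenchymal stroma markers, 9 were well above background on all 6 arrays, and Pdgfra, Pdgfrb, Prrx1, Twist1 and Foxc1 were not on any. In contrast, all 18 shared leukocyte genes and the 15 neutrophil markers measured were detected in each of the 6 samples. Young replicate 3 stood apart from the other young samples in these genes. It was the highest young array in 16 of the 18 leukocyte genes and 14 of the 15 neutrophil markers, against 32.6% of all genes tested.

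The promoter windows of the 3 genes that passed the test below, and of Gzmb and Prf1, which did not, are shown so that the sequences can be set beside the values. Each runs from 250 bases before to 50 bases after the start of the gene in RefSeq, build GRCm38.p6, 5′ to 3′ on the strand of the gene. Capitals mark 4 short motifs searched on both strands: the T-box core TCACAC, the Runx motif TGTGGT, the Stat motif TTCNNNGAA and the Ets motif CGGAAG. The windows are chr13:113100932-113101231 for Gzma, chr6:128788592-128788891 for Klrb1c and chr14:56262285-56262584 for Gzmb, all on the minus strand, and chr6:129577963-129578262 for Klre1 and chr10:61297586-61297885 for Prf1, both on the plus strand.
Gzma: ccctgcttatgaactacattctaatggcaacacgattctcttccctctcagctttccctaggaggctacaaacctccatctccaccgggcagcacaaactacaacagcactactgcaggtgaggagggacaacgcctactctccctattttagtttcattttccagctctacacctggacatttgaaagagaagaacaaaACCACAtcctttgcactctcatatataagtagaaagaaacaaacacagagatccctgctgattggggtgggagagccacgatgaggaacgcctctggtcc
Klrb1c: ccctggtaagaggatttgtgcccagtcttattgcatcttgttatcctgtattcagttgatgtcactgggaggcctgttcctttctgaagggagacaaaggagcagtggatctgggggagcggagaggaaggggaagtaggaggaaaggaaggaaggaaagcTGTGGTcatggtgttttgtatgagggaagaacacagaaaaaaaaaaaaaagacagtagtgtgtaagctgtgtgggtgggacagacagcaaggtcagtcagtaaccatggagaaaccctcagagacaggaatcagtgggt
Klre1: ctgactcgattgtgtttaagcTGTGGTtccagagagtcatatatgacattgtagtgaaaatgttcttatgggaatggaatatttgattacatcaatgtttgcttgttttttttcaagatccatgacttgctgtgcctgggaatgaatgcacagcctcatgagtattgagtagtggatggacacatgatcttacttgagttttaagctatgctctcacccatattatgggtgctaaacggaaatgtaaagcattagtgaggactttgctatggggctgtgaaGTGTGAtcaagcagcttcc
Gzmb: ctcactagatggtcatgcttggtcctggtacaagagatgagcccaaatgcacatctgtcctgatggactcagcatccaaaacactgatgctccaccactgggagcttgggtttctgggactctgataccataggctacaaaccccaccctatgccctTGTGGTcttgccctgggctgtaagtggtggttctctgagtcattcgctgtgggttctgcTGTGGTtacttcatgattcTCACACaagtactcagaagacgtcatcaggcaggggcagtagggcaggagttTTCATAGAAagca
Prf1: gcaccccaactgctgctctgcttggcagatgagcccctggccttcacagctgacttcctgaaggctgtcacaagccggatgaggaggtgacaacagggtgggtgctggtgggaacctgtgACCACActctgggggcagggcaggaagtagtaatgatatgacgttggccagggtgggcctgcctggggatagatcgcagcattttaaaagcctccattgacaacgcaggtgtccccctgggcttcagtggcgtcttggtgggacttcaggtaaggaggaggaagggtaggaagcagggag
A window was found for 9 of the 10 members, not for Klrd1, and Klre1 and Ncr1 had 2 overlapping windows each. The Runx motif was in a window of 8 of these 9 genes, all but Eomes, while 16.8% of all 32851 windows of the same length hold it. It lies in the Gzma window as ACCACA, the reverse complement, 50 bases before the start. The T-box core was in windows of 4 genes, Klre1, Ncr1, Nkg7 and Gzmb (14.5% of all windows), the Stat motif in those of Nkg7 and Gzmb (8.3% of all windows) and the Ets motif in none (16.9% of all windows). No matches of different motifs overlapped. The Prf1 window, whose gene did not pass the test, and the Gzma and Klrb1c windows, whose genes did, each held 1 Runx match and no other. These matches are letters in a window and no measure of binding.

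The question put by the 2 ages is whether these transcripts change in level between them. Klrb1c, Klre1 and Gzma were lower in old samples, while Prf1, Nkg7, Gzmb, Eomes and Klrd1 did not pass the test, and Klrk1 and Ncr1 could not be tested. Gzma fell by 2.32 ± 0.51 on the log2 scale (± SE, adjusted p = 0.0477 by limma with Benjamini-Hochberg adjustment over all genes, n = 3 and 3). Testing required the brightest probe of a gene to be detected (well above background) in 3 or more of the 6 samples, which held for 8 of the 10 members. Of the 8, 3 fell and none rose, where 4.04% of the 23266 genes tested fell and 3.98% rose. Klrb1c and Klre1 reached the filter through the young arrays alone, so a member of this kind had to be lower in old samples, and the count is a description only. In 4 of the 8 the groups did not overlap, as in 36.0% of all genes tested, and in 3 of these the old samples were lower (13.1% of all genes tested). The median log2 fold change was -1.31 over the 8 tested members, -0.71 with Klrb1c and Klre1 set at their bounds, and 0.07 over all genes tested. In bulk RNA of sorted cells, fewer cells of a type and less RNA per cell cannot be told apart.

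**Figure D1:**
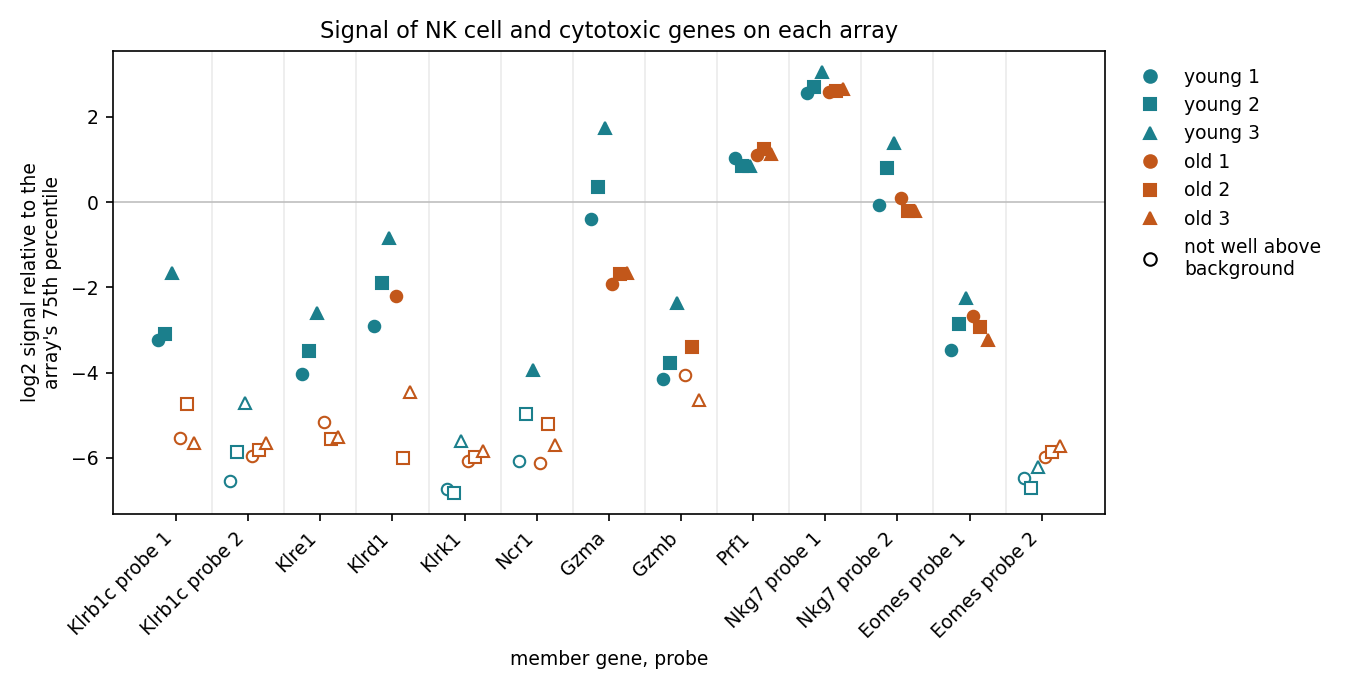
Log2 signal minus that of the 75th percentile of each array (vertical axis) for the 13 probes of the 10 members (horizontal axis), 1 point per array, with young samples in blue-green, old samples in orange, and open symbols for spots not well above background. All 3 Gzma points of the old samples lie below the 3 young ones, and those of Prf1 lie just above them. The Klrk1 points are open on all 6 arrays.

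Among the receptors, Klrb1c encodes NK1.1, the surface marker by which NK cells of C57BL/6 mice are usually recognised. Its probe for transcript NM_001159904 gave -3.24, -3.10 and -1.67 in the young replicates 1, 2 and 3, against -5.53, -4.73 and -5.64 in the old replicates in the same order. Every young sample was above every old one, and the probe was detected in none of the old samples. In old samples Klrb1c was at least 2.91-fold lower, which sets the young mean against the lowest measurable signal of each old array or the probe's own signal, whichever was higher. Here and below, such a bound takes the young mean as it stands. It makes no allowance for the scatter of the young samples, so a smaller difference is possible. The fitted log2 fold change was -2.63 ± 0.47 (limma adjusted p = 0.0322). A further Klrb1c probe, for transcript NM_008527, was not well above background on any array, with values of -6.55 to -4.71. With the mean of both probes the log2 fold change was -1.37 and the call ended (limma adjusted p = 0.105).

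Klre1 encodes a lectin-like NK receptor that pairs with the products of Klri1 and Klri2. It was -4.04, -3.49 and -2.61 in the young samples, against -5.17, -5.57 and -5.50 in the old ones. The groups did not overlap, and it too was detected in none of the old samples. Klre1 was at least 1.78-fold lower in old samples, with a fitted log2 fold change of -2.03 ± 0.36 (limma adjusted p = 0.0318). Klrd1 encodes CD94, the partner of the NKG2 receptor chains, and its values were the most scattered of the set. They were -2.91, -1.89 and -0.85 in young samples, against -2.20, -6.01 and -4.45 in old replicates 1, 2 and 3. Old replicate 1, the only old sample well above background, lay within the young range, while the other two lay below it. The difference was -2.34 with a 95% interval from -4.80 to 0.13 and did not pass (limma adjusted p = 0.197). It was -3.35 without old replicate 1, -1.44 without old replicate 2 and -1.82 without young replicate 3, and passed in none of these (limma adjusted p = 0.068, 0.39 and 0.391).

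Klrk1 encodes NKG2D, an activating receptor for stress-induced ligands. Its probe was not well above background on any array, at -6.82 to -5.61 in young and -6.08 to -5.83 in old samples, so neither group had a level that could be compared. Ncr1 encodes NKp46, an activating receptor found mainly on NK cells and related innate lymphocytes. It was -6.07, -4.97 and -3.93 in the young samples, with only replicate 3 well above background, and -6.11, -5.21 and -5.71 in old samples. The young and old ranges of Ncr1 overlapped.

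Among the granule genes, Gzma encodes granzyme A, a tryptase abundant in resting NK cells. Its processed signal before scaling was 254, 448 and 922 in the young samples, against 75.8, 69.9 and 64.5 in the old ones. Scaled, it was -0.40, 0.36 and 1.73 in young and -1.91, -1.68 and -1.68 in old samples, well above background on all 6 arrays. The young samples had an SD of 1.08 log2 units and the old ones of 0.13, with no overlap. Gzmb encodes granzyme B, which cuts after aspartate and triggers apoptosis of the target. It was -4.16, -3.78 and -2.37 in young and -4.05, -3.40 and -4.63 in old samples, of which only replicate 2 was well above background. These groups overlapped, young replicate 3 stood highest, and the difference was -0.59 with a 95% interval from -1.88 to 0.69 (limma adjusted p = 0.508). Without young replicate 3 it was -0.06.

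Prf1 encodes perforin, the pore-forming protein of the granules. It was 1.03, 0.84 and 0.84 in young and 1.11, 1.25 and 1.12 in old samples. All 3 old values lay above the young ones, as in 22.9% of genes tested, but the difference of 0.26 ± 0.10 did not pass (95% interval 0.03 to 0.49, limma adjusted p = 0.145). This was the one tested member with a positive fold change, and the only one in which young replicate 3 was not the highest young array. Nkg7 encodes a membrane protein of cytotoxic granules needed for their release. Its brighter probe gave 2.56, 2.71 and 3.06 in young and 2.58, 2.60 and 2.65 in old samples, with overlap and a difference of -0.16 (95% interval -0.50 to 0.18, limma adjusted p = 0.495). Its dimmer probe, for the same transcript NM_024253, gave -0.06, 0.81 and 1.40 in young and 0.09, -0.22 and -0.22 in old samples. In a fit over 31286 single probes, of which 7.80% passed and 3.77% were lower in old samples, the dimmer probe differed by -0.83 (95% interval -1.70 to 0.04) and did not pass either (limma adjusted p = 0.201).

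Eomes encodes the T-box factor eomesodermin, which drives NK maturation and is also used by memory T cells. Its measured probe gave -3.48, -2.87 and -2.25 in young and -2.68, -2.92 and -3.24 in old samples. The groups overlapped fully, with a difference of -0.08 (95% interval -0.87 to 0.70, limma adjusted p = 0.892). A further Eomes probe for the same transcript NM_010136 was detected in no sample. The Gzma difference of -2.32 had a 95% interval from -3.56 to -1.08. That interval overlapped those of Gzmb and the dimmer Nkg7 probe, but not those of Eomes, Prf1 and the brighter Nkg7 probe. Whether the fold changes of single members differ from each other was not tested.

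**Figure D2:**
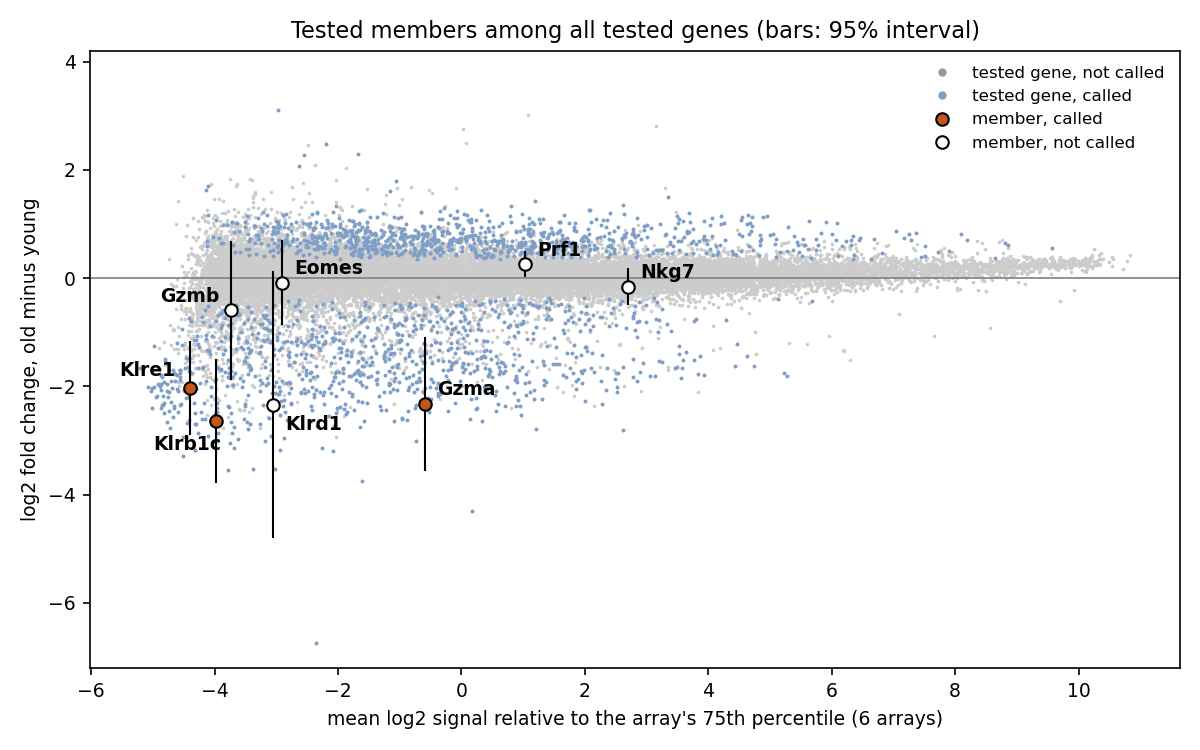
Log2 fold change, old minus young (vertical axis), against the mean log2 signal over 6 arrays (horizontal axis) for the 23266 genes tested, with called genes (adjusted p under 0.05) in blue. Large points are the 8 tested members with 95% intervals, filled where called. Gzma, Klrb1c and Klre1 lie between -2.03 and -2.63, and Klrb1c and Klre1 sit at the dim end of the genes tested.

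The size of these falls moved with young replicate 3. In 7 of the 8 tested members it was the highest young array. Without it the log2 fold changes were -1.74 for Gzma, -2.13 for Klrb1c and -1.65 for Klre1, and all 3 passed narrowly (limma adjusted p = 0.0498, 0.0498 and 0.0483). Other single arrays decided the calls as well. Gzma had a limma adjusted p of 0.121 without young replicate 2, and of 0.0993, 0.122 and 0.129 when old replicate 1, 2 or 3 was left out. Klrb1c and Klre1 ended without the same 4 arrays (limma adjusted p from 0.0553 to 0.101), and Klrb1c also without young replicate 1 (0.0526). Over all genes 1864 (8.01%) passed, 768, 63 and 321 without young replicates 1, 2 and 3, and 1154, 1 and 5 without old replicates 1, 2 and 3.

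Processing also bore on the dim members. Normexp background correction of the median signals adds an offset of 50 before the log2 step, more than the whole processed signal of Klre1 on any array. With it the log2 fold change was -0.34 for Klrb1c and -0.08 for Klre1, and both calls ended (limma adjusted p = 0.247 and 0.768), while Gzma was -1.65 and passed (0.0229). Gzma kept its size and missed the threshold under quantile normalization (-2.35, limma adjusted p = 0.0523) and cyclic loess (-2.38, 0.0542). Of all calls 49.6% were higher in old samples, against 39.0% with the authors' deposited table, 62.0% with normexp and 59.9% among genes well above background on all 6 arrays.

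**Figure D3:**
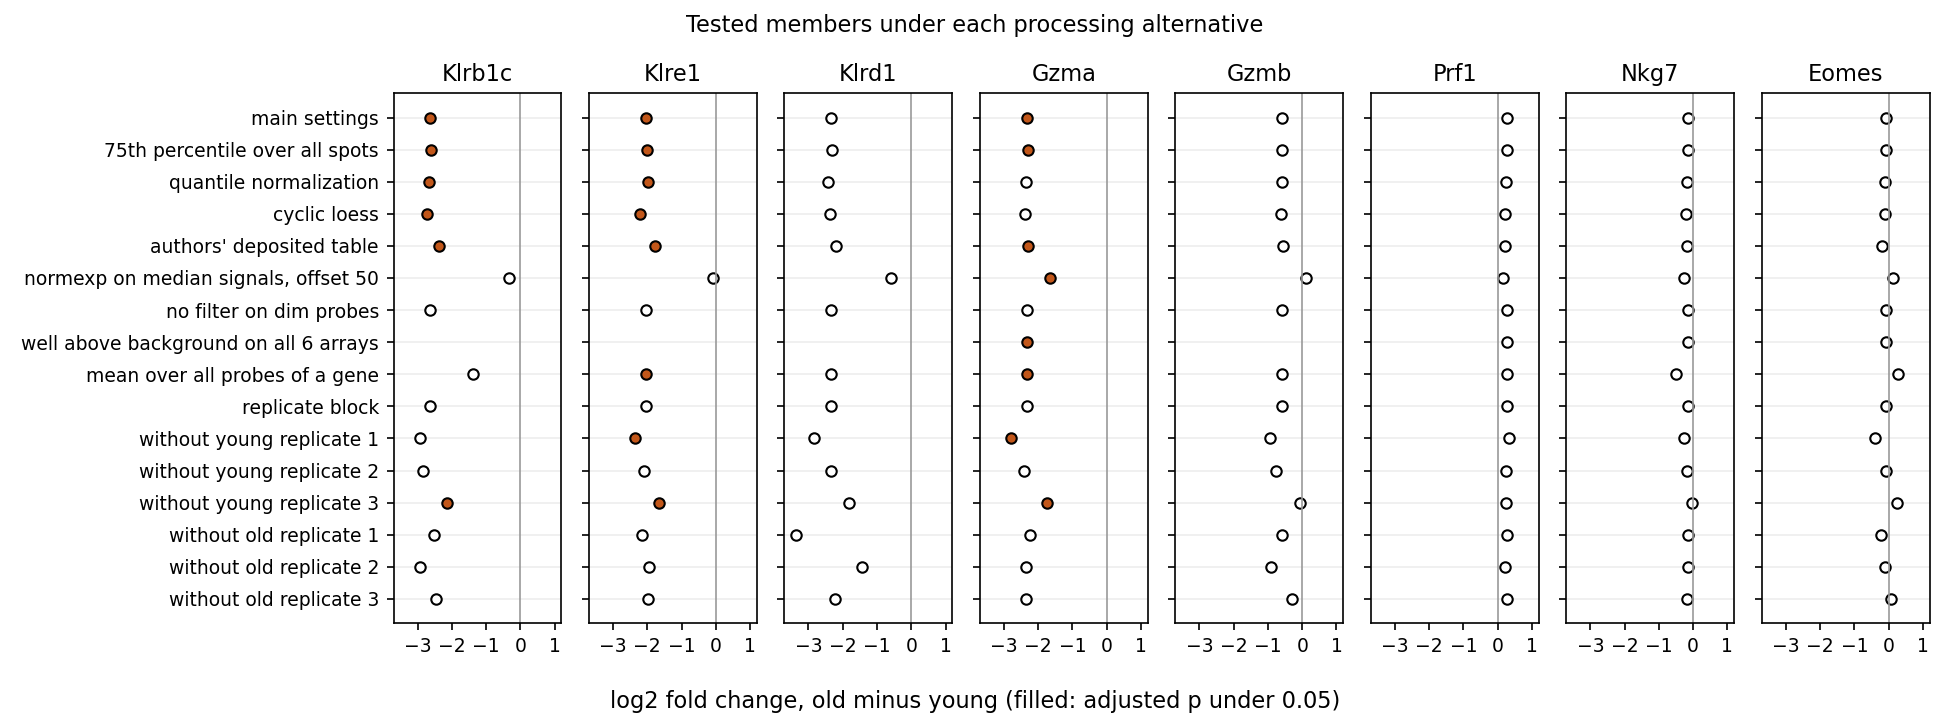
Log2 fold change, old minus young (horizontal axes), of the 8 tested members under the main settings and each processing alternative (rows), filled where the adjusted p was under 0.05. Klrb1c and Klre1 move towards 0 with normexp, and Prf1 stays above 0 in each row.

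Other NK receptor genes were described from lists of pathway genes. Of 29 listed, 27 were on the array, 13 were tested, 5 fell and none rose, beside 4.04% and 3.98% of all genes tested. Of the 5, Klra17, Klrb1f and Cd96 passed the filter only through young arrays, so they had to come out lower. The median over the 13 was -1.97 on the log2 scale, or -1.32 with the 5 that no old array measured set at their bounds. Several listed genes are not particular to NK cells: Klra2 and Klra17, of the Ly49 family, are known from myeloid cells, and Klra17 from plasmacytoid dendritic cells. Klra2 fell by 2.33 ± 0.42 (limma adjusted p = 0.0319), and Fcgr3, which encodes the Fc receptor CD16 of NK and myeloid cells, fell by 2.06 ± 0.39. Klrb1f and Klra17 were at least 2.49-fold and 1.25-fold lower, as neither was well above background on any old array, and with normexp the Klra17 difference turned to 0.02. Another 10, among them Klrg1, Cd160, Cd226 and Tigit, were well above background on no array. Without young replicate 3, 1 of the 13 passed. In that fit 1.38% of all genes tested passed, which is the share to set beside such counts below too. Probes of such closely related receptor genes may take up RNA of a relative, and the probe sequences were not used here.

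The members Klrb1c, Klre1, Klrd1 and Klrk1 lie in the NK gene complex of chromosome 6, a stretch chosen for description after the values were seen. From Klrb1a to Klra2, the RefSeq table lists 48 protein-coding genes, of which 38 were on the array and 20 were tested. In old samples 8 fell and none rose, beside 4.04% and 3.98% of all genes tested. These were Klrb1c, Klre1, Klrb1f, Klra17, Klra2, the activation marker gene Cd69, the dendritic cell lectin gene Clec9a and the NK receptor ligand gene Clec2i. For 7 of the 20, no old array was well above background, so the filter was reached through young arrays. Klrb1c, Klre1, Klrb1f, Klra17 and Clec9a were among these and had to come out lower, so the count is a description only. Genes of the stretch that are not NK receptors did not share the direction throughout: Gabarapl1, an autophagy gene, was at 0.10 ± 0.09 and Clec1b, a platelet lectin gene, at 0.28 ± 0.12, neither of which passed (limma adjusted p = 0.514 and 0.199). The Ly49 receptor gene Klra1 was at 0.24 ± 0.17 (limma adjusted p = 0.402).

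**Figure D4:**
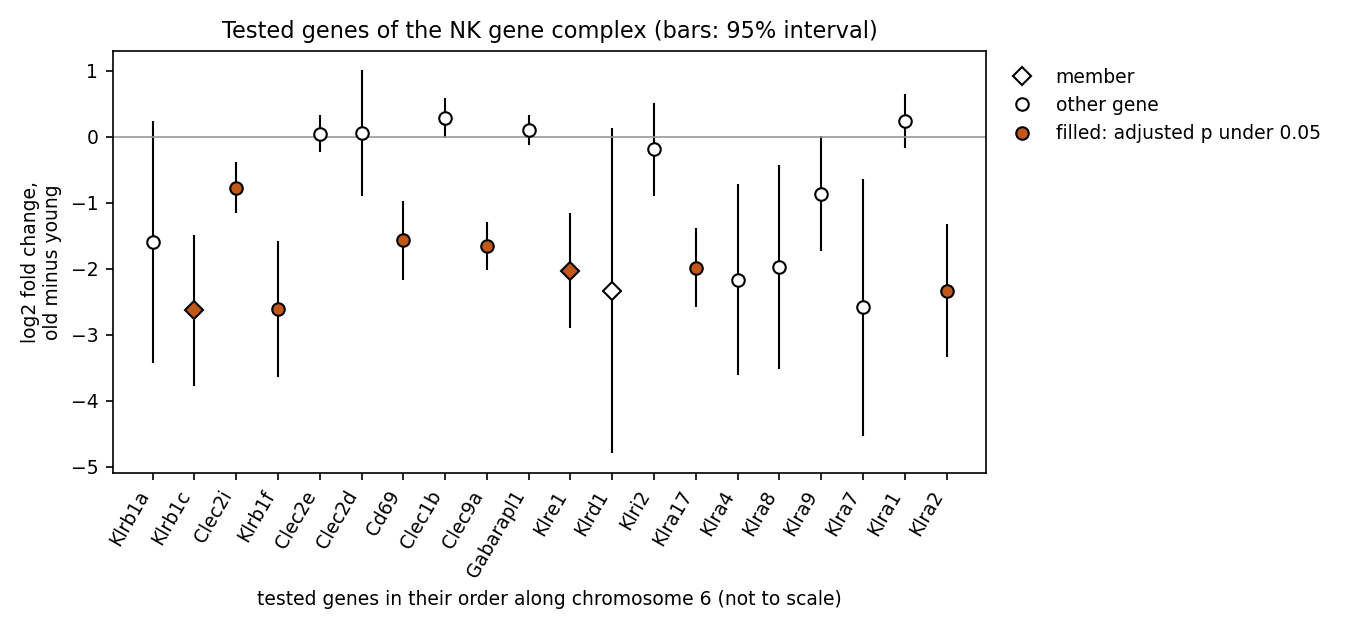
Log2 fold change, old minus young, with 95% interval (vertical axis) for the 20 tested genes of the NK gene complex in their order along chromosome 6 (horizontal axis, not to scale). Diamonds are the members Klrb1c, Klre1 and Klrd1, and filled symbols mark adjusted p under 0.05. The 8 filled symbols all lie below 0, and Klrb1c, Klre1, Klrb1f, Klra17 and Clec9a among them were well above background on no old array.

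Signalling adaptors of these receptors fell in 4 of 16 tested genes, with a median of -0.96. Beside this count and those of the lists below, 4.04% of all genes tested fell and 3.98% rose. Tyrobp (DAP12) and Fcer1g, adaptors shared by NK and myeloid receptors, fell by 1.84 ± 0.34 and 1.74 ± 0.29 (limma adjusted p = 0.0336 and 0.0293). The kinase gene Syk fell by 1.67 ± 0.25 and the phospholipase gene Plcg2 by 1.42 ± 0.21. Hcst (DAP10), the partner of NKG2D, was at -1.11 ± 0.28, and Zap70, a kinase of T and NK cells, at -1.37 ± 0.35, and neither passed (limma adjusted p = 0.0668 and 0.0675). Leaving out young replicate 3, 1 of the 16 passed.

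The other granule and release genes fell in 1 of 15 tested members, beside 4.04% of all genes tested, and none rose. Their median was -0.06. The member that fell was Stx11, a syntaxin needed for granule fusion, by 0.49 ± 0.10 (limma adjusted p = 0.0424). Gzmk and Gzmm, further granzyme genes, were at 0.18 ± 0.11 and 0.16 ± 0.12, and Gzmc, Gzmd, Gzme, Gzmf, Gzmg and Gzmn were detected in no sample. Ctsc, the protease that activates granzymes, was at -1.33 ± 0.35 and did not pass (limma adjusted p = 0.0736). Of 5 tested effector cytokine genes, Ccl3 fell by 2.10 ± 0.39 and Tnf by 1.46 ± 0.24 (limma adjusted p = 0.0347 and 0.0285). Ifng, the main NK cytokine, was not well above background on any old array and did not pass (limma adjusted p = 0.0532). No effector cytokine and no granule gene of these lists passed without young replicate 3. Without old replicate 2 or old replicate 3, 0 genes of any list of pathway genes or markers passed, and without young replicate 2 the 3 that did were stroma markers.

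Transcription factors of the NK lineage fell in 5 of 14 tested genes, with a median of -0.02. The falls were Nfil3, needed for NK commitment (-1.92 ± 0.32), Id2, an inhibitor of E proteins (-1.56 ± 0.28), Klf2 (-1.59 ± 0.28), Foxo1 (-0.84 ± 0.13) and Ets1 (-0.93 ± 0.17), with limma adjusted p from 0.0276 to 0.0348. All 5 also act in other blood cells. Tbx21 (T-bet), the T-box partner of Eomes, was at 0.14 ± 0.68 and did not pass (limma adjusted p = 0.915). With young replicate 3 left out, 1 of the 14 passed.

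Receptors and signal carriers for NK growth and activation cytokines fell in 6 and rose in 1 of 13 tested genes, with a median of -0.93. Il18r1, a chain of the interleukin 18 receptor, was at least 3.87-fold lower, with no old array well above background, as for Il18rap, so that both reached the filter through young arrays. Il2rg, the common gamma chain, fell by 0.93 ± 0.14 and Il2ra by 1.94 ± 0.40 (limma adjusted p = 0.0273 and 0.0424). Il12rb1, a chain of the interleukin 12 receptor, rose by 0.94 ± 0.12 (limma adjusted p = 0.0227). Il2rb, the beta chain of the interleukin 2 and 15 receptors, was at -1.21 ± 0.35 and did not pass (limma adjusted p = 0.0885). Without young replicate 3, 1 of the 13 passed, and 3 passed under cyclic loess.

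Ligands of NK receptors fell in 2 of 6 tested genes: Cd48, the ligand of 2B4 and a gene of most leukocytes, by 0.91 ± 0.16, and Clec2i by 0.77 ± 0.16 (limma adjusted p = 0.0310 and 0.0412). Ulbp1, a ligand of NKG2D, was at 0.32 ± 0.20, and H2-T23, which encodes the CD94 ligand Qa-1, at -0.07 ± 0.11, and neither passed. Among 9 tested homing and maturation genes, the chemokine receptor gene Cx3cr1 fell by 1.98 ± 0.32 (limma adjusted p = 0.0276). None of the 6 ligand genes passed without young replicate 3.

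Some lists of markers of other cells fell as the members did and others did not. Their part in the falls of the members was not tested. Of all genes tested, 4.04% fell and 3.98% rose, and 39.8% had a negative fold change whether they passed or not. The 18 shared leukocyte genes fell in 9 cases and rose in none, with a median of -0.95. Their summed linear signal, in multiples of the array's 75th percentile, was 158 to 262 in young and 99.8 to 110 in old samples. Neutrophil markers fell in 5 of 15 (2027 to 3073 against 1363 to 1696 by the same sum), and mast cell and basophil markers in 2 of 8 (14.4 to 30.2 against 7.82 to 9.94). S100a9 and S100a8, which did not pass, gave 59.1% to 68.2% of the neutrophil sum, and Hdc and Prss34 36.9% to 67.5% of the mast cell sum. The fold change was negative in 14 of the 15 and 6 of the 8, with medians of -1.21 and -1.20. Of 14 tested T cell markers, Thy1 and Tcf7 fell and Cd3e and Cd8a rose, while 10 had a negative fold change, with a median of -0.31. Tcf7, and Cd8b1 among the 10, reached the filter through the young arrays alone and had to come out lower. The sum of the T cell markers was 19.1 to 23.7 in young and 21.9 to 24.99 in old samples. Of it, 56.7% to 82.2% came from Cd4 and Cd3e. Their mean log2 level, in which each gene counts alike, was -1.29 to -0.40 in young and -1.63 to -1.37 in old samples. Plasmacytoid dendritic cell markers fell in 4 of 14, and 9 of the 14 had a negative fold change, with a median of -0.32. Their sums of 362 to 429 and 361 to 416 overlapped, but 79.4% to 83.95% of each came from Siglech, which was at 0.04 ± 0.12. The mean log2 level of these markers was 1.37 to 1.77 in young and 0.69 to 0.82 in old samples, with no overlap.

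Cd3e, a chain of the T cell receptor complex, rose by 0.80 ± 0.13 (limma adjusted p = 0.0276). The other chains of that complex in the list had the opposite sign, Cd3d at -1.53 ± 0.42 with no overlap between the groups and Cd3g at -1.08 ± 0.53, and neither passed (limma adjusted p = 0.0811 and 0.244). Cd8a, a chain of the coreceptor of cytotoxic T cells, rose by 0.61 ± 0.13 (limma adjusted p = 0.0456). With the mean over its probes Cd8a turned to -0.35 (limma adjusted p = 0.386), and Cd8b1, the other chain of that coreceptor, was at -1.96 ± 0.47 with no old array well above background, and did not pass (limma adjusted p = 0.0593). Thy1 fell by 1.56 ± 0.33, and Tcf7, also well above background on no old array, was at least 1.84-fold lower. Among innate lymphoid cell markers Il7r, the interleukin 7 receptor gene, fell by 3.20 ± 0.58 (limma adjusted p = 0.0325) as 1 of 6 tested, and Il23r, Il13, Il5, Areg and Rora were well above background on no array. None of the 10 tested erythroid markers passed, with a median of -0.03, and that of smallest p, Epb42, was at -0.54 ± 0.15 (limma adjusted p = 0.0772). Thy1 is held in the stroma list too. In the mast cell list Hdc and Cpa3 fell by 1.93 ± 0.38 and 2.04 ± 0.41. In the plasmacytoid dendritic cell list Spib, Irf8, Cox6a2 and Ly6d fell by 2.36, 2.37, 2.11 and 2.07. Pacsin1 and Runx2 of that list had the opposite sign, at 0.47 ± 0.14 and 0.66 ± 0.24 with no overlap, and did not pass. Falls in the neutrophil list included Retnlg (1.82), Mmp8 (1.86), Cxcr2 (1.86) and Mmp9 (2.23), in the leukocyte list Cytip (1.77), Cd52 (1.62) and Evi2a (2.34), and in the stroma list Sparc (4.30) and Cxcl12 (2.40), with Col1a1 at least 37.3-fold lower and Lepr higher by 1.02. Col1a1 was well above background on no old array, so it reached the filter through the young arrays and had to come out lower. Its young values were scattered, at 1.9, -0.8 and 2.0, as were those of Sparc, at 3.1, 0.5 and 3.3. Without young replicate 3, none of the T cell, innate lymphoid, mast cell or stroma markers passed. In that fit 3 leukocyte, 1 neutrophil and 3 plasmacytoid dendritic cell genes did.

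**Figure D5:**
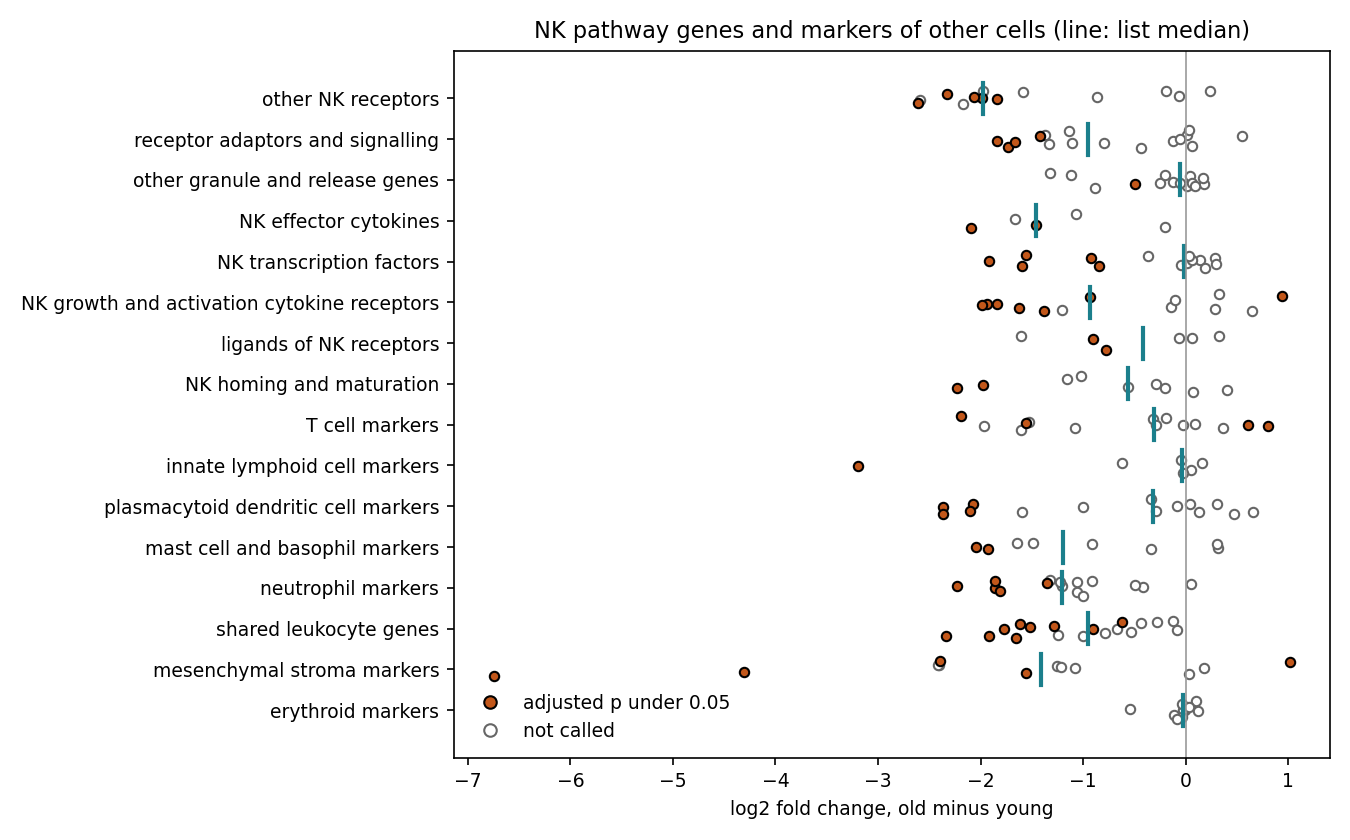
Log2 fold change, old minus young (horizontal axis), of tested genes in 16 lists of NK pathway genes and markers of other cells (vertical axis), 1 point per gene, filled where adjusted p was under 0.05, with a line at the list median. The median of the other NK receptor list is -1.97, and that of the other granule and release genes is -0.06.

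The genes whose pattern over the 6 arrays was most like the mean of the 8 tested members were sought by Pearson correlation, as a description over 6 arrays that include the difference between the groups. That mean was -1.83, -1.40 and -0.51 in the young samples, against -2.23, -2.56 and -2.67 in the old ones, so it was highest in young replicate 3 and lower in every old sample than in any young one. The closest of 13527 other genes with a symbol were Itgb2, the beta 2 integrin of leukocytes (r = 0.998), Alox5, a lipoxygenase of myeloid cells (0.996), Ly6a, the antigen Sca-1 (0.996), 1700020L24Rik (0.996) and Brox (0.996). None of the 5 passed the test between the ages (limma adjusted p from 0.0596 to 0.117). Of the 13527 genes, 503 (3.72%) had r above 0.95.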

How the data were processed

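The authors deposited 1 file of spot intensities per array, the output of Agilent Feature Extraction (version 10.7.3.1 per the file headers, 10.5.1.1 per the submitters' processing notes, probe design annotated on mm9). Per the file headers, the processed intensity is background-subtracted and spatially detrended, with no scaling across samples. A further table deposited for the series gives log2 values (52095 of 55681 probes), whose scaling the sources used here do not give. It correlated with the log2 processed intensity at r = 0.9986 to 0.9995 per array, its column medians were 4.87 to 4.95, and it served as an alternative.

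Control spots (3671 of 62976 per array) and outlier spots were left out, repeated spots of a probe were averaged, and each array's 75th percentile over probes was subtracted from the log2 processed intensity, with no pseudocount. Symbols came from a RefSeq table of GRCm38.p6 by accession (26413 probes). Each gene was its probe with the highest mean. Genes well above background on at least 3 of 6 arrays were tested with lmFit and eBayes from limma 3.58.1, run in R 4.3.3 (no covariate, Benjamini-Hochberg adjustment over all genes, threshold 0.05). Files were read with Python 3.11.15. The steps were tested on simulated data. The members and lists were chosen with earlier results of these data known. Genes were named by rule: all members, up to 4 called genes of smallest p per list or else the one of smallest p, and the 5 of highest correlation. Other genes named, such as Cd69, Gzmk, Tbx21 or Il2rb, were picked after their values were seen. Alternatives covered scaling, background correction, filters, the probe rule, a block and single arrays left out.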

Additional observations from a re-analysis of the deposited data

How the results depend on the processing

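Leaving out 1 array at a time gave 1 to 1154 called genes against 1864, and 0 to 3 called members against 3. With normexp on the median signals 2911 genes and 1 member passed. It was chosen after seeing the data, because the version planned on mean signals was not run, as was the 75th percentile over all spots, which kept the 3 member calls. Without a filter on dim probes 0 genes and 0 members passed (limma, 11662 genes at an unadjusted p under 0.05), and among genes well above background on all 6 arrays 1 member, Gzma, of 4 tested passed. The replicate numbers showed no pairing of the samples: deviations from the group means of same-numbered samples correlated at -0.03, 0.02 and -0.01, and none was closest to its own number. With 3 samples per group, these values cannot show that same-numbered samples were handled apart. With the replicate number as a block 0 genes and 0 members passed (limma, 5554 genes unadjusted). The sign turned for Gzmb (0.12), Eomes (0.12) and Klra17 (0.02) with normexp, for Eomes (0.26) and Cd8a (-0.35) with the mean over probes, and for Eomes without young replicate 3 (0.23) or old replicate 3 (0.06), over a range of -0.39 to 0.23 with single arrays left out. The causes were not tested. Klrb1c, Klre1, Klrd1, Ncr1 and Gzmb lay near background on old arrays, which limits what a difference in them can show.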
